A study of Homo sapiens with 4 samples.

Results

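VAMP8 and 9 related SNAREs were examined in A549/146b and A549/vec cells, as measured on bead arrays. The members are VAMP8, VAMP1, VAMP2, VAMP3, VAMP4, VAMP5, VAMP7, SNAP23, SNAP25 and SNAP29, and all 15 probes that the array's annotation assigns to these 10 genes were taken, out of 24526 probes and 16922 named genes. The set was built around VAMP8, which was selected on its normalized signals in these same 4 arrays, because it had the largest increase of all transcripts. Its own values in that comparison are therefore given as a description, with no test. The other members were chosen as its relatives.

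A549 is a cell-line of human lung adenocarcinoma. A549/146b cells are A549 cells that were transduced with the lentiviral vector pLemiR carrying an insert for human pre-miR-146b. The insert lies behind the constitutively active CMV promoter, in the transcript of a red fluorescent protein. A549/vec cells received the vector without an insert. Both are populations selected with puromycin rather than single clones, and both were grown with 2 µg/ml puromycin. Each cell-line was cultured on 2 occasions, with 1 array per culture, so that there were 2 arrays of A549/146b and 2 of A549/vec. The culture number in each sample title was taken as the occasion, which the titles do not state.

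SNAREs are small proteins that drive the fusion of membranes. A SNARE on a vesicle (mostly a VAMP) zips together with SNAREs on the target membrane (a syntaxin and a protein of the SNAP-25 family, or light-chain syntaxins) into a bundle of helices that pulls both membranes close. VAMP8, also called endobrevin, works in fusion between endosomes, in fusion of autophagosomes with lysosomes, and in exocytosis of granules from epithelial and blood cells. VAMP1, VAMP2 and SNAP25 are best known from the synapse, whereas VAMP3, VAMP7, SNAP23 and SNAP29 are found in many cell types.

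The sequences that distinguish the cell-lines are those of the overexpressed microRNA, and they are shown for that reason. In the RefSeq annotation (GRCh38.p14) the hairpin lies on the plus strand at chr10:102436512-102436584 and is 73 bases long. In the hairpin below, capitals mark the 2 mature arms. In the mature microRNAs, capitals mark the seed (bases 2 to 8 from the 5′ end), the part that pairs with a target. The seed of miR-146b-5p is shared by 2 other human mature microRNAs in the table, miR-146a-5p (chromosome 5) and miR-7153-5p, and that of miR-146b-3p by none. The arrays did not measure these microRNAs, and no search for their sites in SNARE transcripts was made.
pre-miR-146b: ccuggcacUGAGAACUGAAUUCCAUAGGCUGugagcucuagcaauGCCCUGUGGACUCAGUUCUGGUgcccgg
hsa-miR-146b-5p: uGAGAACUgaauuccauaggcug
hsa-miR-146b-3p: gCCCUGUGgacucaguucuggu
hsa-miR-146a-5p: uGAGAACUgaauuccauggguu

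A probe was considered expressed if its detection p-value, which compares its signal with that of the negative control beads, was under 0.01 on at least 1 of the 4 arrays. This held for 10559 probes. They were fitted with limma, which compared the cell-lines within each occasion, and p-values were adjusted over all 10559 after Benjamini and Hochberg. Probes are named called below if this adjusted p was under 0.05. Values are the authors' normalized signals on a linear scale, which allow a probe to be compared between arrays but not with another probe. Standard errors were 0.14 on the log2 scale for all expressed member probes, since limma took them almost wholly from a spread shared by all probes (1025 prior degrees of freedom against 1 residual). The small number of arrays, 2 per cell-line, limits how precise any of these values can be. Mean signals before normalization were 412 to 452 in A549/146b and 394 to 480.1 in A549/vec, and the A549/vec array of occasion 1 stood apart somewhat from the other 3 (r of 0.993 to 0.995 with them across all log2 signals).

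The cells carried most marks of A549. Of 13 such markers on the array, 10 were expressed, among them the keratins KRT8, KRT18 and KRT19, and EPCAM, AKR1C1 and FGB were not. CPS1 and TGM2 of this list were called, both higher in A549/146b, against 0.928% of all expressed probes called. Their log2 fold changes were 0.68 and 0.52 (adjusted p = 0.0017 and 0.0383 from limma). On occasions 1 and 2 CPS1 had 0.67 and 0.68, and TGM2 had 0.23 and 0.81. The other 8 were not called, 5 of them below 0, with KRT19 at -0.50 (adjusted p = 0.0515), CDH1 at -0.27 and KRT8 at -0.20. The part of these markers in any SNARE value was not tested. Of 7 markers of alveolar type II cells on the array only ABCA3 was expressed, and surfactant proteins SFTPA1, SFTPB, SFTPC and SFTPD were not. Of 7 leukocyte markers only CD14 was expressed, and of 4 endothelial and 6 fibroblast markers none.

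VAMP8 transcript had a signal 2.35 times as high in A549/146b cells as in A549/vec cells by its single probe (ILMN_2190084, assigned to NM_003761), and the 2 occasions gave almost the same ratio. Its normalized signal was 733 and 633 in A549/146b on occasions 1 and 2, against 312 and 269 in A549/vec. Both A549/146b arrays lay above both A549/vec arrays, as for 22.0% of all expressed probes, and the signal was detected on all 4. Since VAMP8 was chosen for its increase on these arrays, the lack of overlap is a description only. The cell-line means were 683 ± 71.1 in A549/146b and 290.2 ± 30.7 in A549/vec (SD, n = 2 each). The RNA came from whole populations of cells, so that more VAMP8 transcript per cell and a larger share of cells with the transcript cannot be told apart.

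VAMP8 was higher by 1.23 and 1.24 on the log2 scale on occasions 1 and 2, and it ranked 1st of 10559 expressed probes on each. The next largest mean increase was that of ANXA10, an annexin, with a log2 fold change of 0.83, which is 0.40 below the 1.23 of VAMP8. Within each cell-line the VAMP8 signal was lower on occasion 2 by a similar step, with log2 changes between the occasions of -0.21 in A549/146b and -0.22 in A549/vec. The near equality of the 2 occasions came with the normalization. Before normalization the VAMP8 signals were 741.5 and 573.7 in A549/146b against 264.9 and 283.8 in A549/vec, with log2 differences of 1.48 on occasion 1 and 1.02 on occasion 2. With median scaling alone these differences were 1.39 and 1.11, and with quantile normalization 1.22 and 1.23.

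**Figure D1:**
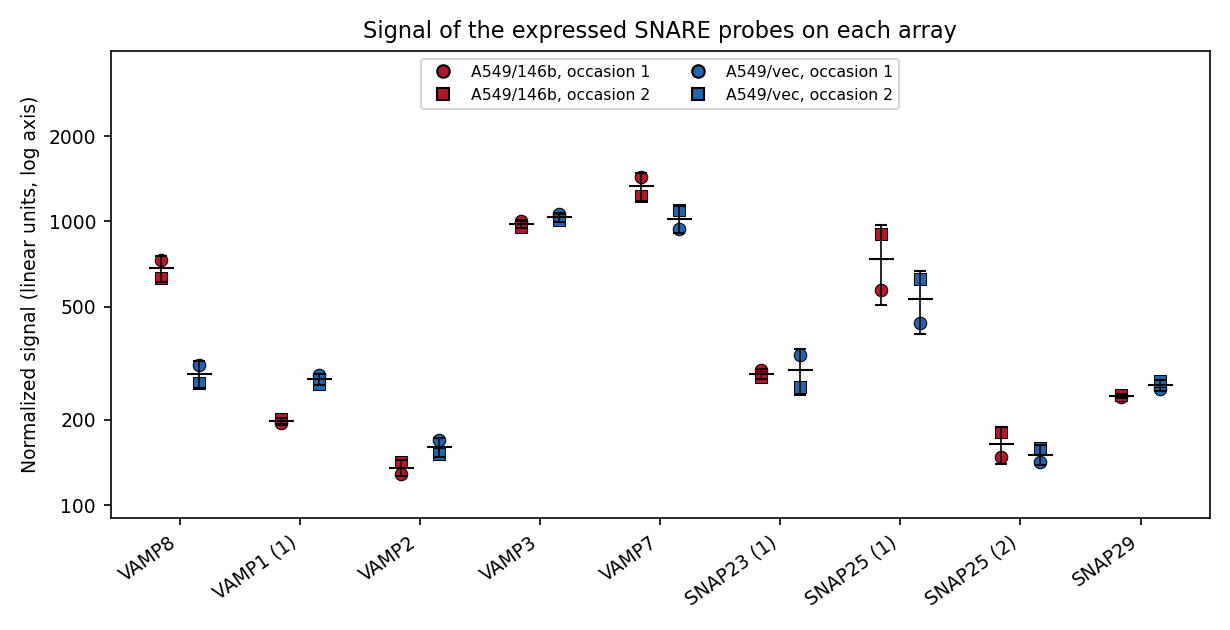
Normalized signal (linear units on a log axis) of the 9 expressed SNARE probes on each of the 4 arrays, with A549/146b in red and A549/vec in blue, circles for occasion 1 and squares for occasion 2, and black marks for the mean ± SD (n = 2). Numbers in brackets tell probes of a gene apart. VAMP8 shows the widest gap, with 733 and 633 in A549/146b against 312 and 269 in A549/vec.

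Of the 10 genes, 8 had an expressed probe. Among the 7 expressed relatives of VAMP8, none was called at an adjusted p under 0.05 from limma, and 3 of their 8 probes had an unadjusted p under 0.05, 2 of them higher and 1 lower in A549/146b. Over all expressed probes 0.928% were called, 0.436% higher and 0.492% lower, and 12.2% had an unadjusted p under 0.05, 6.21% higher and 6.03% lower. The log2 fold changes of these 8 ran from -0.49 to 0.46 with a median of -0.06, against a median of -0.0024 for all expressed probes, and 3 of the 8 were above 0. The 3 with the smallest p were VAMP1, SNAP25 and VAMP7.

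VAMP1, synaptobrevin 1, a vesicle SNARE of neurons that also occurs elsewhere, was the member that came nearest to the threshold. Its expressed probe (ILMN_1737611) had normalized signals of 195 and 201 in A549/146b, against 287 and 268 in A549/vec. Both A549/146b arrays lay below both A549/vec arrays, which was also so for 22.0% of all expressed probes. The cell-line means were 198 ± 4.13 in A549/146b and 277 ± 13.4 in A549/vec (SD, n = 2 each). The log2 fold change was -0.49 (95% interval -0.77 to -0.21, adjusted p = 0.0565 from limma), with -0.56 on occasion 1 and -0.42 on occasion 2. The other 2 VAMP1 probes, assigned to other transcripts of the gene, were not expressed on any array. They were at 62.5 to 71.5 in A549/146b and 64.8 to 76.4 in A549/vec.

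SNAP25, the target-membrane SNARE of synaptic and neuroendocrine exocytosis, was expressed in these lung-derived cells by both of its probes. The probe assigned to transcript NM_003081 had normalized signals of 574 and 903 in A549/146b on occasions 1 and 2, against 439 and 628 in A549/vec. The cell-lines overlapped, since the signal was higher on occasion 2 in both of them. Between the occasions the log2 signal changed by 0.65 in A549/146b and 0.52 in A549/vec. Within each occasion A549/146b was the higher one, with log2 differences of 0.39 and 0.52. The log2 fold change was 0.46 (95% interval 0.18 to 0.74) and was not called (adjusted p = 0.0887 from limma).

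The second SNAP25 probe, assigned to NM_130811, showed the same order with a smaller gap. It was at 147 and 182 in A549/146b and at 142 and 159 in A549/vec, a log2 fold change of 0.13 (95% interval -0.16 to 0.41, adjusted p = 0.783 from limma). Fits that dropped 1 array and the block mixed the cell-line difference of the first SNAP25 probe with its rise between occasions. This rise was 0.65 in A549/146b and 0.52 in A549/vec on the log2 scale. Their spread therefore cannot show how firm the differences within occasions were, which were 0.39 and 0.52. In fits without the block, the first probe had 0.78 without A549/146b replicate 1 (adjusted p = 0.039) and 0.72 without A549/vec replicate 2 (adjusted p = 4.8e-04), whereas the fits that left out A549/146b replicate 2 or A549/vec replicate 1 gave 0.13 and 0.20.

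Of the transcripts typical of neurons, which have high VAMP1, VAMP2 and SNAP25, 5 of 11 on the array were expressed. These were ENO2, TUBB3, STX1A, SYT1 and CPLX2, and SYN1, SYP, CPLX1, SNAP91, NEFL and NEFM were not. None of the 5 was called, which 0.928% over all expressed probes would also give, and 2 had an unadjusted p under 0.05 from limma (12.2% over all), ENO2 (log2 fold change -0.47, adjusted p = 0.0702) and STX1A (-0.41, adjusted p = 0.161). The TUBB3 probe was at 2767 and 3414 in A549/146b and at 3812 and 3059 in A549/vec, so that the cell-lines overlapped.

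VAMP7, the longin-type vesicle SNARE of late endosomes and lysosomes, was the third member with a small unadjusted p. Its normalized signal was 1436 and 1227 in A549/146b, against 944 and 1101 in A549/vec. Both A549/146b arrays were the higher ones, as for 22.0% of all expressed probes, and most of the gap lay in occasion 1. The log2 fold change was 0.38 (95% interval 0.10 to 0.66, adjusted p = 0.200 from limma), with 0.60 on occasion 1 and 0.16 on occasion 2. In fits without the block, the log2 difference of VAMP7 was 0.49 with A549/vec replicate 2 left out and 0.27 with A549/vec replicate 1 left out. These fits also take in its log2 change between the occasions, which was -0.23 in A549/146b and 0.22 in A549/vec.

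VAMP2, synaptobrevin 2, the main vesicle SNARE of synapses, had low signals of 129 and 142 in A549/146b, against 169 and 151 in A549/vec. The A549/146b arrays lay below those of A549/vec by a narrow margin on occasion 2. Its log2 fold change was -0.24 (95% interval -0.52 to 0.04, adjusted p = 0.508 from limma), from -0.39 on occasion 1 and -0.09 on occasion 2. Leaving out 1 array, without the block, moved VAMP2 between -0.32 (A549/vec replicate 2 left out) and -0.16 (A549/vec replicate 1 left out).

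VAMP3, cellubrevin, a vesicle SNARE of recycling endosomes that is most closely related to VAMP1 and VAMP2, differed little. It was at 1001 and 958 in A549/146b and 1063 and 1009 in A549/vec. Its log2 fold change was -0.08 (95% interval -0.36 to 0.20, adjusted p = 0.880 from limma). Leaving out 1 array, without the block, gave values between -0.12 (A549/vec replicate 2 left out) and -0.042 (A549/vec replicate 1 left out). With median scaling the log2 difference of VAMP3 had opposite signs on occasions 1 and 2 (0.13 and -0.20).

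SNAP23, the relative of SNAP25 outside neurons and a partner of VAMP8 in exocytosis, had a difference that turned between the occasions. Its better expressed probe had 299 and 282 in A549/146b against 339 and 261 in A549/vec, and the A549/146b arrays lay between those of A549/vec. The log2 fold change was -0.03 (95% interval -0.32 to 0.25, adjusted p = 0.955 from limma), from -0.18 on occasion 1 and 0.11 on occasion 2. With median scaling SNAP23 was lower on both (-0.020 and -0.021). A second SNAP23 probe was just short of detection on all 4 arrays, with detection p-values of 0.0129 to 0.0194.

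SNAP29, which joins VAMP8 and STX17 in the fusion of autophagosomes with lysosomes, had 239.7 and 245 in A549/146b, against 256 and 273 in A549/vec. The A549/146b arrays were the lower ones, on average by less than the standard error of the fit. The log2 fold change was -0.13 (95% interval -0.41 to 0.16, adjusted p = 0.781 from limma). With 1 array and the block left out, SNAP29 lay between -0.17 (no A549/vec replicate 1) and -0.080 (no A549/vec replicate 2).

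VAMP4, a vesicle SNARE of the trans-Golgi network, and VAMP5, found mainly in muscle, were not expressed by the limit used. Both VAMP4 probes were close to it, with detection p-values of 0.0129 to 0.0291 and normalized signals of 88.8 to 96.6 in A549/146b and 83.2 to 93.5 in A549/vec. VAMP5 was at 60.2 and 69.8 in A549/146b and at 69.1 and 59.3 in A549/vec, with detection p-values of 0.129 to 0.948, and no fold is given for it. At such signals a low transcript level was not detectable on these arrays.

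Over the 8 expressed probes of the relatives of VAMP8, the arrays of the cell-lines did not overlap for 1 probe with A549/146b above (VAMP7) and for 4 with A549/146b below (VAMP1, VAMP2, VAMP3 and SNAP29), against 22.0% of all expressed probes in each direction. The other 3 overlapped. The direction was the same on both occasions for 7 of the 8, all but SNAP23, and for 58.4% of all expressed probes, although with median scaling VAMP3 and SNAP29 differed in sign between the occasions and SNAP23 did not.

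**Figure D2:**
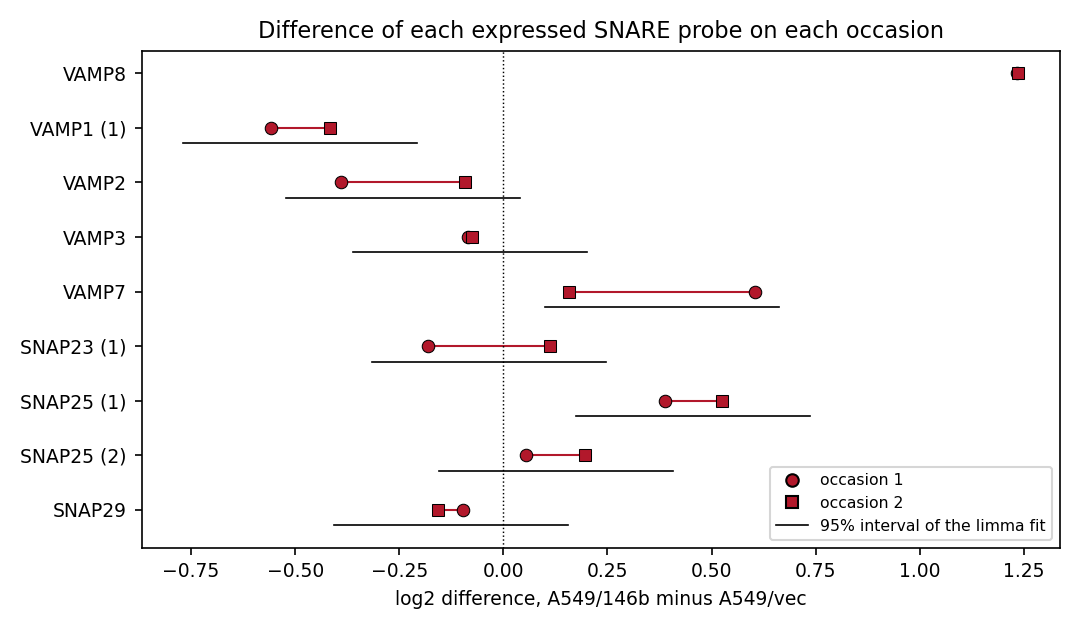
Log2 difference (A549/146b minus A549/vec) of the 9 expressed SNARE probes on occasion 1 (circles) and occasion 2 (squares), with the 95% interval of the limma fit as a black line for the tested relatives of VAMP8. VAMP8 lies at 1.23 and 1.24, and all other probes lie between -0.56 and 0.60.

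The syntaxins and light-chain SNAREs that VAMP8 pairs with, and others of the same compartments, were mostly expressed. None was called, against 0.928% of all expressed probes. Of 10 such partners 7 were expressed, and STX7, STX17 and STX11 were not. STX6, a syntaxin of the trans-Golgi network and endosomes, was at 582 and 576 in A549/146b and at 425 and 525 in A549/vec. Its log2 fold change was 0.29 (95% interval 0.01 to 0.57, adjusted p = 0.377 from limma). STX6 had the 1 unadjusted p under 0.05 among the 7, against 12.2% over all expressed probes. VTI1B, which with STX7, STX8 and VAMP8 forms the complex of late endosomes, had -0.21 (adjusted p = 0.581). STX12, of recycling endosomes, had 0.19 (adjusted p = 0.639) and STX4, the plasma membrane partner of SNAP23 and VAMP8, -0.18 (adjusted p = 0.667). The median of the 7 was 0.01, with 4 above 0, against 0.01 for the 8290 expressed named genes.

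Among 13 expressed SNAREs of other steps none was called either (0.928% over all expressed probes), and 4 had an unadjusted p under 0.05 from limma (12.2% over all). STX1A, the syntaxin of synapses, was at 232 and 276 in A549/146b, against 378 and 299 in A549/vec, a log2 fold change of -0.41 (adjusted p = 0.161). STX10, of the trans-Golgi network, had -0.32 (adjusted p = 0.317), with -0.67 on occasion 1 and 0.02 on occasion 2. SEC22B, a vesicle SNARE between the endoplasmic reticulum and the Golgi, had 0.32 (adjusted p = 0.328) and its relative SEC22A 0.29 (adjusted p = 0.377). The median of the 13 was -0.02.

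The proteins that prepare, recycle and guide SNAREs showed no call (0.928% over all expressed probes). Of 23 such regulators on the array 18 were expressed, with log2 fold changes between -0.21 and 0.24, a median of -0.05, and no unadjusted p under 0.05 from limma. NSF, the ATPase that takes used SNARE complexes apart, was at 3295 and 3081 in A549/146b and at 2830 and 2676 in A549/vec. By this probe it was higher by 0.22 and 0.20 on the log2 scale on occasions 1 and 2 (adjusted p = 0.581), whereas its second expressed probe (ILMN_2330845) had 0.036 and -0.065, with a log2 fold change of -0.014 (adjusted p = 0.986). STXBP5, tomosyn, had 0.24 (adjusted p = 0.497), SCAMP1, a carrier membrane protein, 0.20 (adjusted p = 0.611), and STXBP2, which binds syntaxins in exocytosis of epithelial and blood cells, -0.21 (adjusted p = 0.584).

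All 11 subunits and partners of the HOPS and CORVET tethers, which hold endosomes and lysosomes together before SNAREs fuse them, were expressed, and 3 of the 11 were above 0. In limma no subunit was called (0.928% over all expressed probes). By the probe of highest mean the unadjusted p was 0.05 or more for all of them, whereas 12.2% of all expressed probes were under 0.05. VPS16 had the largest difference, with a log2 fold change of -0.28 (adjusted p = 0.414), and its second probe, of lower mean signal, had -0.40 (unadjusted p under 0.05, adjusted p = 0.171). VIPAS39, VPS8 and VPS39 had -0.14, -0.14 and -0.13. The median of the 11 was -0.06.

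Of 13 genes of autophagosome formation and fusion, 11 were expressed and none was called (0.928% over all expressed probes). In limma 1 had an unadjusted p under 0.05 (12.2% over all). This was SQSTM1, the autophagy receptor p62, at 5499 and 7163 in A549/146b against 7823 and 8538 in A549/vec. Its log2 fold change was -0.38 (adjusted p = 0.200). GABARAP and MAP1LC3A, which coat autophagosomes, had 0.26 (adjusted p = 0.447) and 0.21 (adjusted p = 0.595), and BECN1, beclin 1, had -0.21 (adjusted p = 0.595). The median of the 11 was 0.07.

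Calcium sensors of regulated exocytosis and the cargo of airway secretory cells were mostly not expressed. Of 16 synaptotagmins and related sensors 5 were, with a median log2 fold change of 0.12, no call and no unadjusted p under 0.05 from limma. They were SYT1 (0.17), SYTL4 (-0.13), SYTL2 (0.12), SYT11 (0.12) and SYT17 (-0.04). Of 11 cargo genes on the array, mucins, trefoil factors, lysozyme and SFTPB, only the membrane mucin MUC13 was expressed, with -0.08 (adjusted p = 0.883). Over these 7 lists together, 66 of 102 genes on the array were expressed and none was called in limma. Of the 66, 6 had an unadjusted p under 0.05. With 0.928% of all expressed probes called, no call among 66 genes is near the background, and 12.2% of all had an unadjusted p under 0.05. The log2 fold changes ran from -0.41 to 0.32, with a median of -0.03 and 29 above 0, against a median of 0.01 and 4317 above 0 among the 8290 expressed named genes.

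**Figure D3:**
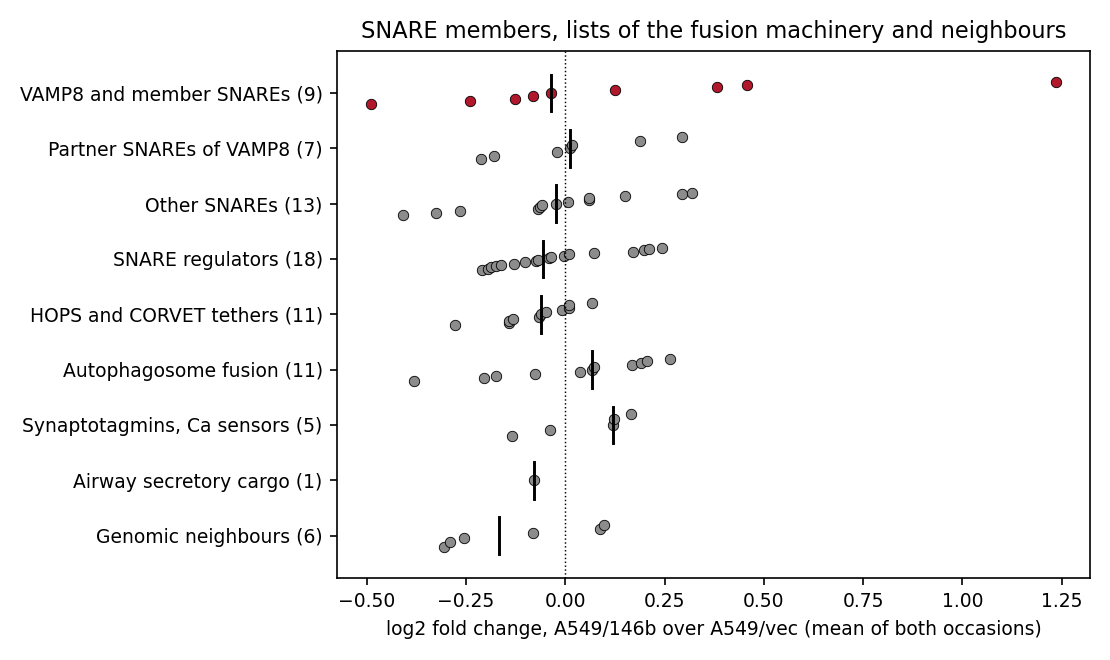
Log2 fold change (A549/146b over A549/vec, mean of both occasions) of the 9 expressed probes of the SNARE members (red) and of the expressed genes in 7 lists of the fusion machinery and among the genomic neighbours of VAMP8 (grey, 1 probe per gene). The number of points is in brackets and a black bar marks each median. All points other than VAMP8 at 1.23 lie between -0.49 and 0.46.

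VAMP8 and VAMP5 are neighbours in the genome, and no neighbour with a probe was called. In the RefSeq annotation VAMP8 lies at chr2:85577586-85582031 and VAMP5 at chr2:85584431-85593406, 2.4 kb after the end of VAMP8. VAMP5 was not expressed in either cell-line. Of 30 annotated genes besides VAMP8 that start within 250 kb of its start, VAMP5 included, 12 had a probe and 6 were expressed.

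None of these 6 was called in limma, a count that a background of 0.928% would also give, and 2 were lower in A549/146b at an unadjusted p under 0.05, as were 6.03% of all expressed probes. USP39, of the splicing machinery, was at 1012 and 1015 in A549/146b, against 1325 and 1184 in A549/vec, a log2 fold change of -0.30 (adjusted p = 0.354). MAT2A, which makes S-adenosylmethionine, was at 5006 and 5914 in A549/146b, against 6622 and 6676 in A549/vec, a log2 fold change of -0.29 (adjusted p = 0.388). Further, RETSAT, retinol saturase, had -0.26 (adjusted p = 0.470), TMEM150A had -0.08, RNF181, a ubiquitin ligase, 0.10 and GGCX, the vitamin K-dependent carboxylase, 0.09. SFTPB, the surfactant gene 79.7 kb away, was not expressed.

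The remaining members lie apart from VAMP8. In the same annotation VAMP3 lies at chr1:7771296-7781432, VAMP4 at chr1:171700160-171742065, VAMP1 at chr12:6462237-6470677, VAMP2 at chr17:8159147-8162948 and VAMP7 at chrX:155881345-155943769. Of the target-membrane SNAREs, SNAP23 lies at chr15:42491129-42533058, SNAP25 at chr20:10218830-10307418 and SNAP29 at chr22:20859007-20891214. Where within these genes the probes bind was not analysed here.

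**Figure D4:**
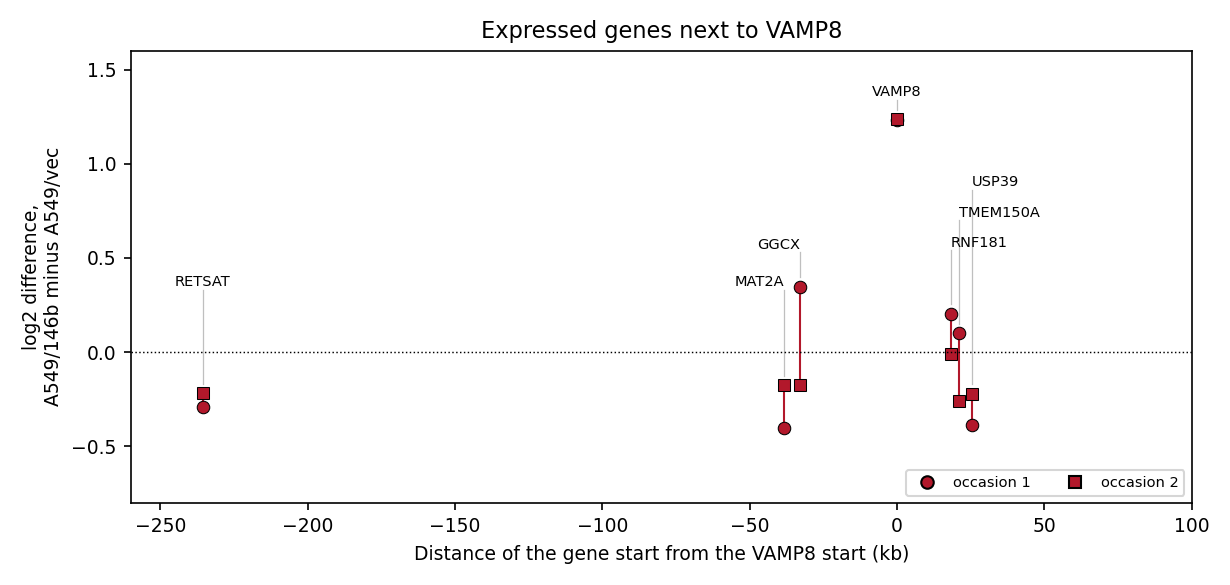
Log2 difference (A549/146b minus A549/vec) of VAMP8 and of its 6 expressed neighbours, against the distance of the gene start from that of VAMP8 in kb. Circles are occasion 1 and squares occasion 2. VAMP8 lies at 1.23 and 1.24, and the means of both occasions for the neighbours shown run from -0.30 (USP39) to 0.10 (RNF181).

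The transcripts whose profile over the 4 arrays was most like that of VAMP8 were CDH2, ANXA10, UGT1A7, BCHE and CPS1. Likeness was the distance between log2 signals, each centred on its own mean over the arrays, and was 0.45 for CDH2, 0.46 for ANXA10, 0.51 for UGT1A7, 0.52 for BCHE and 0.56 for CPS1. With 4 arrays this measure largely picks transcripts with a large increase. CDH2, N-cadherin, was at 1952 and 1765 in A549/146b, against 1151 and 1007 in A549/vec, and like VAMP8 it was lower on occasion 2 in both cell-lines. UGT1A7 and BCHE were detected in neither A549/vec culture. None of the 5 belongs to the SNARE machinery.

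Of 12 alternatives to the processing, 4 (no block and 3 detection filters) bear on the p-values only and return the same log2 differences. Over the other 8 the log2 difference of VAMP8, given here as a description since VAMP8 was chosen on it, was 1.13 to 1.39. It had the largest fitted increase in all settings but neqc, where it ranked 2nd. Among its relatives VAMP1, VAMP2, VAMP3, VAMP7, SNAP29 and the first SNAP25 probe had the same sign in these 8, whereas SNAP23 and the second SNAP25 probe turned when an array was left out. Those fits had no block. Within occasions the second SNAP25 probe was higher in A549/146b on both, with log2 differences of 0.055 and 0.20.

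**Figure D5:**
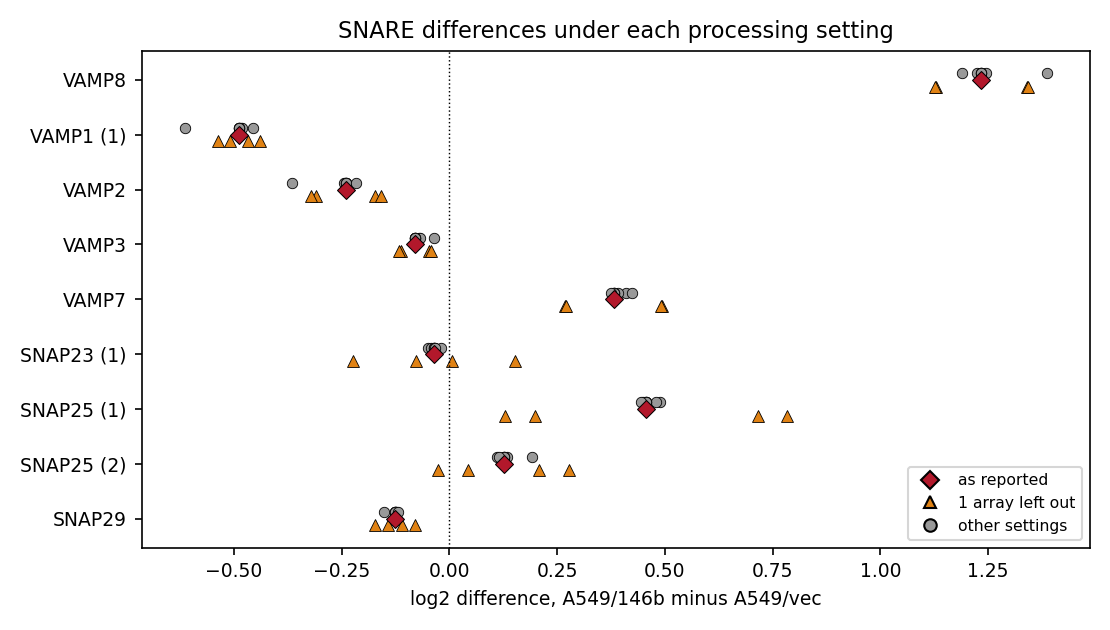
Log2 difference (A549/146b minus A549/vec) of the 9 expressed SNARE probes under each setting. Diamonds are the main fit used here, triangles have 1 array left out and no block, and circles are the other settings. VAMP8 stays between 1.13 and 1.39, and the first SNAP25 probe ranges from 0.13 to 0.78.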

How the data were processed

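RNA of A549/146b and A549/vec cells, from 2 concurrent pairs of cultures, was hybridized to Illumina bead arrays. The authors deposited GenomeStudio signal intensities before normalization, with a detection p-value for each signal, and normalized intensities made in lumi 1.14 under R 2.11.1 by background correction, variance stabilization and robust spline normalization. The deposited normalized intensities are linear (medians 82.6 to 82.8), so log2 was taken. Symbols come from the array's platform annotation (21834 probes with 1 gene symbol, 2692 with none and no probe with several), and coordinates and microRNA sequences from RefSeq GRCh38.p14.

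Expressed probes were fitted with limma 3.58.1 in R 4.3.3, with the occasion as a block after the paper's paired design. As a check of the pairing, deviations from cell-line means correlated with r = -0.05 between arrays of the same number. The block therefore rests on the paper's statement of paired cultures and on taking same-numbered cultures as pairs, not on these values. The p-values rest almost wholly on a spread between cultures that is shared by all expressed probes, not on that of each probe alone. They do not cover the spread between separately transduced populations. For lists, the expressed probe of highest mean was used for each gene. The members and lists were chosen with earlier results of these data known. The text names all members and, from each list, the called genes and up to 4 with the smallest p, in addition to genes named for being expressed or not. The alternatives were no block, each array left out, neqc, quantile normalization, median scaling, 3 other detection filters and an added 16 before log2.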

Additional observations from a re-analysis of the deposited data

How the results depend on the processing

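The count of called probes over the array depended on the setting. It was 98 in the main fit used here, 12 with no replicate block, 21 with neqc and 6 with median scaling. It was 33 for probes detected on all 4 arrays, 2 with a detection p under 0.05, and 52 with 16 added before log2. With no filter it was 0, although 1984 probes had an unadjusted p under 0.05 in limma. With 1 array left out, and with it the block, it ran from 12 to 868, against the 12 with no replicate block and all 4 arrays. The cause was not tested. The count of called SNARE members includes VAMP8, for which it is no test since VAMP8 was chosen by this comparison. It was 1 in the main fit, 0 with no filter, and 1 in the other settings that kept all 4 arrays. Counts of members and list genes for fits with 1 array left out are not given, since 1 cell-line then had a single array. In the lists and among the neighbours the count was 0 in every setting that kept all 4 arrays. VAMP8 had log2 differences of 1.13 to 1.34 with 1 array left out. Of 96 values of the other expressed member probes under the alternatives, 3 turned in direction, all with 1 array left out. Direction could not turn under 4 of the 12 alternatives, which leave the difference as it is and bear on p only. With all 4 arrays kept, no relative of VAMP8 was called. This says little where only 0, 2 or 6 probes were called over the array. With 1 array left out, SNAP23 ran from -0.22 to 0.15, turning to 0.0068 when A549/146b replicate 2 was dropped and to 0.15 when A549/vec replicate 1 was. The second SNAP25 probe ran from -0.027 to 0.28, turning when A549/146b replicate 2 was dropped. These fits mix in its log2 rise between the occasions, which was 0.30 in A549/146b and 0.16 in A549/vec. The replicate block changed the call of no member, and with no replicate block the count of members was again 1. Fits with 1 array left out take the lone array of a cell-line to vary like the others. VAMP2, at 129 to 169, lay close to the lowest detected signals of 104 to 118.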
